A study of Mus musculus with 6 samples.

Results

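H3K27me3 was compared between proliferating SVZ NSCs and cultures 30 h into differentiation by the start and end of every ChIP-seq peak, so that the question became how marked regions differed in extent, and not only whether they were listed. The regions are all peaks of both H3K27me3 lists on chromosomes 1 to 19, 9013 of the 9470 deposited for proliferating cultures and 14871 of the 15187 deposited for 30 h. Those on chromosome X, chromosome Y and unplaced contigs were left out. They make up 23884 of the 43384 peaks in the 3 lists of the series. Both libraries came from neural stem cells derived from the subventricular zone (SVZ) of C57BL/6 mice, for which the labels name no engineered allele, grown as adherent monolayers and used at passages 5 to 7. One culture was proliferating and the other had been in differentiation for 30 h, and the same antibody to H3K27me3 was used for both. There was 1 library per condition, so no difference was tested against variation between cultures. The remaining list gives H3K4me3 in proliferating cultures that the labels call ventral.

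H3K27me3 is placed by EZH2, the methyltransferase of Polycomb repressive complex 2, and serves as a landing platform for Polycomb repressive complex 1. The mark is known for broad domains over silent developmental genes, of which the clusters of Hox genes, the regulators of position along the body axis, are the textbook case. H3K4me3 marks the starts of active or poised genes, and promoters that carry both marks are called bivalent. The edge of a Polycomb domain is where the methylated nucleosomes give way to unmarked or active chromatin, and a peak caller draws it where the reads fall below its threshold.

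On these chromosomes, the proliferating peaks covered 28.0 Mb and the 30 h peaks 72.1 Mb. The median width was 2082 bp in proliferating cells, with quartiles of 1654 and 2996 bp, and 3233 bp at 30 h, with quartiles of 2315 and 5158 bp. Peaks wider than 10 kb numbered 298 in proliferating cells and held 20.9% of the covered length, whereas 1158 at 30 h held 29.9%. The lower end of the widths differed too. The narrowest was 788 bp in the proliferating list and 1288 bp at 30 h, and 10% of peaks were narrower than 1430 and 1994 bp. Depth is unknown from the peak lists used here. The part of depth, fragment length and peak calling in these widths, and in the edge shifts given below, was not tested. Intervals given here are 95% Wilson intervals and cover the counting of peaks only.

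The covered length was then divided by base. Both lists shared 21.1 Mb, which was 75.4% of the proliferating length and 29.3% of the 30 h length. Where a proliferating peak met any 30 h peak, 97.1% of the proliferating bases in such peaks were kept, and what was not kept amounted to 0.563 Mb at the ends of peaks and 0.0584 Mb in breaks inside them. The larger part of the proliferating-only length, 6.25 Mb, lay in 3371 narrow peaks that no 30 h peak met, of median width 1740 bp. Where a 30 h peak met a proliferating one, in contrast, the proliferating list covered 57.1% of its bases. Of the 51.0 Mb found at 30 h only, 13.9 Mb extended outward from proliferating peaks, 1.95 Mb bridged neighbouring ones and 35.1 Mb lay in 10350 peaks that met none. Outward extension and bridging together made up 31.1% of the 30 h-only length. This share was 81.0% when the 30 h list was reduced to its highest-scoring peaks until it covered as much as the proliferating list.

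**Figure D1:**
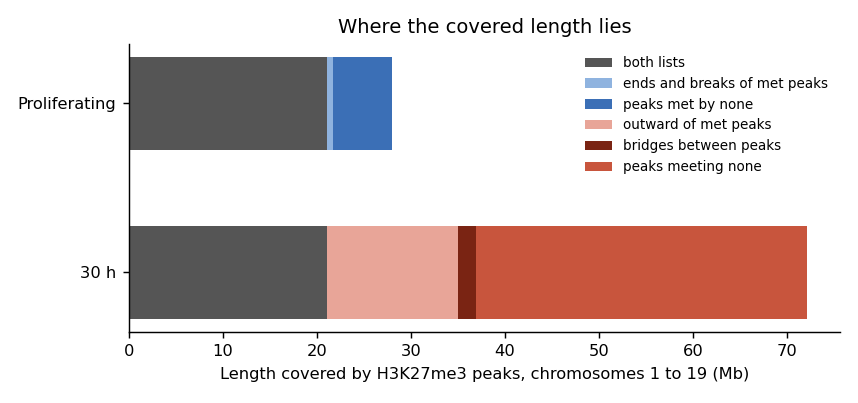
Length covered by H3K27me3 peaks on chromosomes 1 to 19 (x axis, Mb) in each list (rows, 1 library each), divided into bases in both lists and bases in 1 list. The shared 21.1 Mb fills most of the proliferating bar, and 35.1 Mb of the 30 h bar lies in peaks that meet no proliferating peak.

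The 30 h peaks that met no proliferating peak lay at varied distances from them. The median distance to the nearest was 32079.5 bp. Within 1 kb lay 345 of the 10350 (3.33%), within 5 kb 1713 (16.6%) and within 50 kb 6123 (59.2%). How many would lie so near by chance was not tested. Their median score was 112, against 447 for the 30 h peaks that met a single proliferating peak.

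Peaks that overlapped by at least 1 bp were joined into 4357 groups across the lists, which held 5642 proliferating and 4521 30 h peaks. In 3429 groups a single proliferating peak met a single 30 h peak, a one-to-one pair. In 774 groups several proliferating peaks lay under a single 30 h peak, a fusion, and in 78 a single proliferating peak met several 30 h peaks, a fragmentation. A further 76 groups held several peaks of each list.

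In the one-to-one pairs the 30 h peak reached further than the proliferating peak on each side by nearly the same distance. The left edge lay a median of 783 bp further out, with quartiles of 169 and 2038 bp, and the right edge a median of 761 bp, with quartiles of 163 and 1953 bp. The centre of the peak moved by a median of -13.5 bp, so neither direction along the chromosome was favoured. The 30 h peak passed both proliferating edges in 2468 of 3429 pairs (72%, interval 70.4 to 73.5%) and lay inside both in 73 (2.13%). Both its edges lay further left in 441 pairs and further right in 439. Within single pairs, the side that moved further out did so by a median of 1577 bp and the other side by 247 bp, a description in which sorting the sides sets them apart. Over the 3429 pairs, which share libraries and peak caller, the left and right shifts had a Pearson correlation of 0.15 and a Spearman correlation of 0.13.

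**Figure D2:**
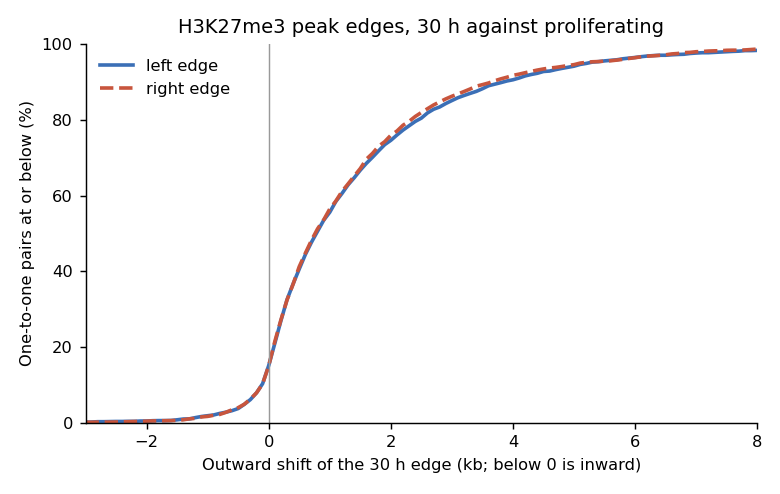
Outward shift of the left and right edge of the 30 h peak against the proliferating peak (x axis, kb) in 3429 one-to-one pairs, as the percentage of pairs at or below each shift (y axis), 1 library per condition. Both curves nearly coincide, cross 0 at about 15% and have medians of 783 and 761 bp.

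A minority of edges stayed in place. The left edge lay within 200 bp of its proliferating position in 19.04% of pairs and the right edge in 19.3%. More than 1 kb of outward shift was seen at 44.4% of left and 43.5% of right edges, and more than 5 kb at 201 and 187 edges. Inward shifts were found at 512 left edges (14.9%) and 514 right edges (14.99%). These were short, with medians of 220 and 222 bp, and exceeded 1 kb at 64 and 58 edges. The narrowest peak also differed between the lists, 788 bp in proliferating cells and 1288 bp at 30 h. The part of such a list-wide difference in these edge shifts was not tested.

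The median outward shift neither rose nor fell steadily with the width of the proliferating peak. In 5 equal groups of pairs ranked by proliferating width, the median left shift was 831 bp in the narrowest, 630 bp in the fourth and 966 bp in the widest, and the right shift 859, 644 and 798 bp. The proliferating width ran from a median of 1548 bp to 5598 bp over these groups. The Spearman correlation of proliferating width with the change in width was -0.03 over 3429 pairs. Proliferating width is subtracted in that change, which pulls the correlation down, so it cannot show whether the shift follows width. The median width at 30 h was 3588 bp for the narrowest group and 8557 bp for the widest. Ranked by proliferating score instead, the median left and right shifts were 1025.5 and 1010.5 bp in the weakest group. They were 670.5 and 546.5 bp in the fourth group and 777 and 718 bp in the strongest. Across the 19 chromosomes the median shift was outward on both sides of every chromosome. On the left side it was lowest on chromosome 10, at 408 bp in 132 pairs, and highest on chromosome 2, at 1057 bp in 335 pairs. The share of pairs wider on both sides ran from 66.5% on chromosome 17 to 75.2% on chromosome 2.

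The reach of the shift depended on which 30 h peaks were used. Over only the highest-scoring 30 h peaks, up to the length that proliferating peaks cover, the medians rose to 1664 and 1470 bp. Peaks with high scores at 30 h were also wider, so such a list favours outward shifts and is no check of their direction.

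The pairs with the largest shifts, picked by the shift of a single edge, were extended further on that side, which such a choice favours. In 5 of the 6 the proliferating peak was at most 2.51 kb wide. On chromosome 2 (mm9), the proliferating peak from 153720664 to 153722531, 1.87 kb wide, met a 30 h peak from 153717488 to 153755754, which reached 33.2 kb further to the right and 3.18 kb further to the left. A 2.51 kb peak on chromosome 4 from 62603876 to 62606380 reached 19.5 kb further right and 0.597 kb further left, and a 1.81 kb peak on chromosome 17 from 44537542 to 44539351 reached 16.8 kb right and 2.18 kb left. The largest shifts to the left were 14.9 kb on chromosome 2 (proliferating peak 180118371 to 180125833), 14.8 kb on chromosome 18 (66177766 to 66179741) and 14.2 kb on chromosome 5 (111026856 to 111028988). The largest inward shifts were smaller. On chromosome 2, the right edge of the proliferating peak from 15943011 to 15951269 lay 5125 bp further in at 30 h, and the 8.26 kb peak became one of 3.90 kb. Right edges moved in by 3974 bp on chromosome 15 (76390110 to 76394731) and by 3654 bp on chromosome 17 (33750709 to 33755745), and left edges by 4036 bp on chromosome 11 (59123993 to 59128206), 3509 bp on chromosome 6 (66141544 to 66146224) and 3320 bp on chromosome 12 (57460938 to 57464948). In 5 of these 6 pairs the other edge lay 1000 bp or more further out, so that the 30 h peak lay to 1 side. In 2 of the 6 the 30 h peak was wider. Some of these pairs overlapped only at their ends. On chromosome 11 the 30 h peak began at 59128029 and the proliferating peak ended at 59128206. Whether such pairs are neighbouring peaks and not a single peak that moved was not tested.

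Neighbouring proliferating peaks were often found under a single 30 h peak. Of the 14871 30 h peaks, 868 (5.84%) spanned 2 or more proliferating peaks, counting those in groups of several peaks of each list. Among them 611 spanned 2, 169 spanned 3, 53 spanned 4 and 35 spanned 5 or more. They held 2135 proliferating peaks, 23.7% of that list, and had a median width of 13.3 kb. The bridges themselves were short. The 1285 gaps between the proliferating peaks under these 30 h peaks had a median length of 778 bp, with quartiles of 299 and 1996 bp. The outermost edges of a fusion also lay outside the proliferating ones, by a median of 1350 bp on the left and 1308 bp on the right in 774 fusions.

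The reverse was rarer. A proliferating peak met 2 or more 30 h peaks in 160 cases, 1.78% of that list, and met more than 2 in 4. The 164 breaks had a median length of 232 bp. Most of these cases rested on a short overlap at the end of a peak, since 24 were left when a pair had to share at least 50% of its shorter peak, a rule under which 798 fusing 30 h peaks were left of 868. With peaks less than 1 kb apart joined in each list beforehand, 22 proliferating peaks met several 30 h peaks and 582 30 h peaks spanned several proliferating ones.

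The spacing of peaks differed between the lists as well. The median gap between neighbouring peaks was 82.9 kb in proliferating cells and 11.8 kb at 30 h. This order turned with the length of the list, since the highest-scoring 2053 peaks at 30 h, which cover as much as the proliferating peaks, lay a median of 199147 bp apart. Gaps up to 1 kb made up 10.03% of the 8994 proliferating gaps and 17.0% of the 14852 gaps at 30 h. The shortest gap was 1 bp in both lists, which is shorter than the DNA around a nucleosome. How the peak caller divides a region was not tested.

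Short gaps between proliferating peaks were mostly covered at 30 h from end to end. This was so for 481 of 574 gaps up to 0.5 kb (83.8%, interval 80.6 to 86.6%), 253 of 328 from 0.5 to 1 kb (77.1%), 231 of 368 from 1 to 2 kb (62.8%), 245 of 609 from 2 to 5 kb (40.2%) and 67 of 496 from 5 to 10 kb (13.5%). Above 10 kb, 9 of 613 gaps up to 20 kb were closed (1.47%), and the longest gap closed was 13.9 kb. Over all gaps up to 10 kb, 1277 of 2375 were closed (53.8%) and 230 were left untouched (9.68%). Every bridge counted above is such a closed gap, so closing and fusion describe nearly the same events. How far outward shifts of the size seen in one-to-one pairs would by themselves close such gaps was not tested. Counted over all 30 h gaps, whichever peaks flanked them, the opposite change was less frequent at every length up to 20 kb. Gaps of the 30 h list up to 0.5 kb were covered by a proliferating peak in 120 of 1581 cases (7.59%), and gaps up to 10 kb in 165 of 7066 (2.34%). Nearly all of these 165 are the 164 breaks inside proliferating peaks. Both flanking peaks met the proliferating list at 993 of these 7066 gaps. Among gaps up to 1 kb whose flanking peaks both met the other list, 734 of 831 proliferating gaps (88.3%) and 156 of 471 30 h gaps (33.1%) were closed.

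**Figure D3:**
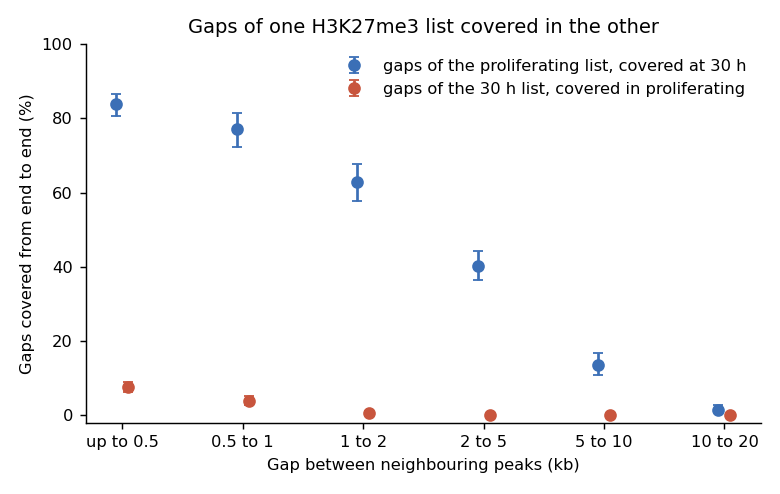
Share of gaps between neighbouring H3K27me3 peaks that the other list covers from end to end (y axis, percent), by gap length (x axis, kb), with 95% Wilson intervals and 1 library per condition. Proliferating gaps fall from 83.8% to 1.47% with length, and 30 h gaps, whichever peaks flank them, stay at or below 7.59%.

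The longest proliferating gaps that 30 h peaks closed included a stretch of 13.9 kb on chromosome 14 (34929395 to 34943304) and another of 12.6 kb on the same chromosome (68238546 to 68251113). Gaps of 13.3 kb on chromosome 3 (17510671 to 17523954), 12.8 kb on chromosome 11 (84349478 to 84362255) and 12.0 kb on chromosome 4 (47006382 to 47018387) were closed as well. The other 5 of the 10 longest, on chromosomes 5, 12, 10 and 6, were 9.95 to 11.5 kb long. Each of the 10 lay within a 30 h peak of 22.3 to 47.9 kb.

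Edges that moved little and edges that moved far differed in H3K4me3, a mark that played no part in choosing them. A peak of H3K4me3 lay within 1 kb outside 684 of the 6858 edges of one-to-one pairs (9.97%). At these edges the 30 h peak reached a median of 171 bp further out, with quartiles of -16 and 730 bp, whereas at the other 6174 edges it reached 873 bp, with quartiles of 213 and 2101 bp. A shift of more than 1 kb was seen at 141 edges beside H3K4me3 (20.6%, interval 17.8 to 23.8%) and at 2875 others (46.6%, interval 45.3 to 47.8%). Inward shifts were found at 28.2% and 13.5%. Left and right edges gave nearly the same values, with medians of 180 and 169 bp beside H3K4me3 and 877 and 873 bp elsewhere.

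**Figure D4:**
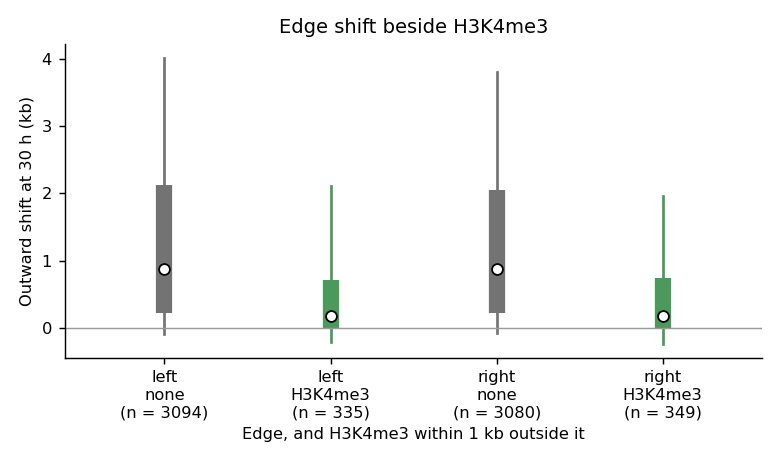
Outward shift of H3K27me3 edges at 30 h (y axis, kb) for left and right edges of one-to-one pairs, with or without an H3K4me3 peak within 1 kb outside the proliferating edge (x axis). Circles are medians, thick bars quartiles and thin lines the 10th to 90th percentile over edges of 1 library per condition, and the medians beside H3K4me3, 180 and 169 bp, lie below those elsewhere, 877 and 873 bp.

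The same was seen within single peaks. In 620 pairs H3K4me3 lay beside 1 edge and not the other. The edge beside H3K4me3 shifted by a median of 160 bp and the opposite edge of the same peaks by 808 bp, and the edge beside H3K4me3 had the smaller shift in 422 pairs (68.1%, interval 64.3 to 71.6%). The difference was present in each of 5 groups by the score of the proliferating peak, from 600 against 1085 bp in the weakest to 108 against 884 bp in the strongest. It narrowed when only H3K4me3 peaks that did not touch the proliferating peak were used, to 436 against 781 bp. That left 104 edges and 102 one-sided pairs, in which the smaller shift lay beside H3K4me3 in 58.8%, with an interval of 49.1 to 67.9%. The interval includes 50%, but it covers the counting of pairs only and is no test. Only the H3K4me3 culture was labelled ventral, and H3K4me3 was not measured at 30 h. Edges are not replicates, so no test was run.

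Gaps that stayed also held H3K4me3 more often than gaps that closed, mainly where the gap was short. Over all proliferating gaps up to 10 kb, 201 of 2375 (8.46%) held an H3K4me3 peak or part of one. Of those up to 1 kb, H3K4me3 was present in 35 of the 734 that closed (4.77%, interval 3.45 to 6.56%) and in 43 of the 168 that did not (25.6%, interval 19.6 to 32.7%). These 43 gaps were spread over 14 chromosomes, with 10 of them on a single one. With both flanking peaks met at 30 h the share in gaps that did not close was 35 of 97 (36.1%). In gaps of 5 to 10 kb the shares were 10.4% of 67 closed and 12.8% of 429 others. Their intervals, which cover counting only, overlapped. The breaks that opened inside proliferating peaks held H3K4me3 in 37 of 164 cases (22.6%), against 60 of the 1285 bridged gaps (4.67%). Breaks lie inside H3K27me3 peaks, however, and bridged gaps lie between them. The bridges are also nearly the same gaps as the closed ones above, so their share is no separate result. By base, H3K4me3 covered 12.7% of the breaks, close to the 12.0% of the H3K27me3 length shared by both lists.

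By base, H3K4me3 covered less of the regions gained at 30 h than of the shared length. It covered 12.0% of the shared H3K27me3 length, but 1.73% of the outward extensions, 1.41% of the bridges and 1.52% of the separate 30 h peaks. In the proliferating ends that were not kept it covered 10.1%, and in the proliferating peaks that no 30 h peak met 2.53%.

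The widest domains showed how edges, fusion and gaps combine. Gene positions of mm9 were not used here, so these regions are given by coordinates and no developmental gene was placed in them. The widest proliferating peak, on chromosome 15 from 102737267 to 102876982, was 139.7 kb wide and lay under a 30 h peak from 102723612 to 102936717. Taken as a pair, the 30 h peak reached 13.7 kb further left and 59.7 kb further right. Most of that reach was fusion. The 30 h peak spanned 7 proliferating peaks with gaps of 311 bp to 8.24 kb, 16.6 kb in all, and beyond the outermost of them it extended by 3.56 kb on the left and 0.849 kb on the right. The widest proliferating peak on chromosome 11, from 96111074 to 96216907, behaved alike. The 30 h peak from 96103463 to 96240940 reached 7.61 and 24.0 kb further than that peak, but it spanned 6 proliferating peaks, and while it reached 0.755 kb further left than the first of them, it ended short of the last, which ran to 96241224.

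Other wide peaks kept at least 1 edge within 0.266 kb of its place. On chromosome 6 the 80.5 kb proliferating peak from 52141772 to 52222283 met 2 peaks at 30 h, 75 bp apart, of which the left one began at 52141780, just inside the proliferating edge, and the right one ended 10.2 kb beyond it. On chromosome 11 the 76.3 kb peak from 3024773 to 3101055 met a 30 h peak from 3024728 to 3100895, which covered 99.8% of it. On chromosome 8 the 88.5 kb peak from 126060802 to 126149287 was extended by 0.266 and 2.93 kb. That region held 47 H3K4me3 peaks over 57.7 kb. The input libraries, which could show an excess of reads there or at the other wide peaks, were not used here.

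Elsewhere a wide 30 h peak was assembled from many shorter proliferating peaks. The 85.8 kb peak on chromosome 17 from 36264782 to 36350614 spanned 11, the most of any, with gaps of 300 bp to 7.73 kb that added up to 28.0 kb, while its ends lay 0.501 and 0.544 kb outside the outermost of them. The 58.8 kb peak on chromosome 4 from 115598241 to 115657077 spanned 9 with 6.61 kb of gaps. The 80.0 kb peak on chromosome 7 from 150514571 to 150594578 spanned 8 with 5.86 kb of gaps, but also ran 17.3 kb past the last of them. The 73.1 kb peak on chromosome 9 from 91241404 to 91314458 spanned 7 and began 3.05 kb outside the first, while the last ran on to 91317843, beyond the end of the 30 h peak. Of the proliferating peaks, 4 met 3 peaks at 30 h, on chromosome 6 from 47686846 to 47724220, chromosome 4 from 150539528 to 150553123, chromosome 11 from 69766359 to 69774980 and chromosome 14 from 25168084 to 25174687. The 30 h peaks still covered 89.8 to 97.2% of each. H3K4me3 covered 30.4 kb of the first, which was 37.4 kb wide, and had no peak in the others.

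When peaks less than 1 kb apart were joined, the widest 30 h domain measured 266.2 kb and ran from 102691428 to 102957635 of chromosome 15. The next widest were one of 191.1 kb on chromosome 6 (52092825 to 52283913), one of 145.2 kb on chromosome 11 (96103463 to 96248675) and one of 139.3 kb on chromosome 2 (74479443 to 74618776). Proliferating peaks covered 78.1%, 88.0%, 91.1% and 86.7% of their length. The 4 widest proliferating domains lay in these same places and measured 165.3, 136.4, 111.7 and 113.5 kb. The number of peaks fell from 9 to 6 on chromosome 15, from 7 to 5 on chromosome 6, from 7 to 2 on chromosome 11 and from 5 to 2 on chromosome 2. Gap totals, proliferating against 30 h, were 21.5 and 1.69 kb, 15.3 and 1.98 kb, 7.95 and 0.308 kb, and 4.31 and 0.249 kb. These domains were picked among joined 30 h domains and end at 30 h edges, so no 30 h gap in them can reach 1 kb. That choice favours more cover, shorter gaps and outward extension at 30 h. The values therefore describe the regions and show no direction of change. Extension beyond the outermost proliferating peak within the domain was unequal between the sides. It was 35.7 and 1.08 kb on chromosome 15 and 0.048 and 7.54 kb on chromosome 6. It was 0.755 and 4.15 kb on chromosome 11 and 0.492 and 13.8 kb on chromosome 2. The domain on chromosome 15 began at -133.1 kb from its centre. A further proliferating peak lay left of it, from -138.8 to -136.4 kb, so the 35.7 kb lay between proliferating peaks. H3K4me3 covered 2.13, 6.21 and 1.96 kb of the domains on chromosomes 15, 6 and 2 and had no peak in that on chromosome 11. A gene table of another build, GRCm38, lists the Hoxa genes on chromosome 6, Hoxb on 11, Hoxc on 15 and Hoxd on 2. Whether these domains are the Hox clusters was not tested, since coordinates of the 2 builds cannot be set side by side.

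**Figure D5:**
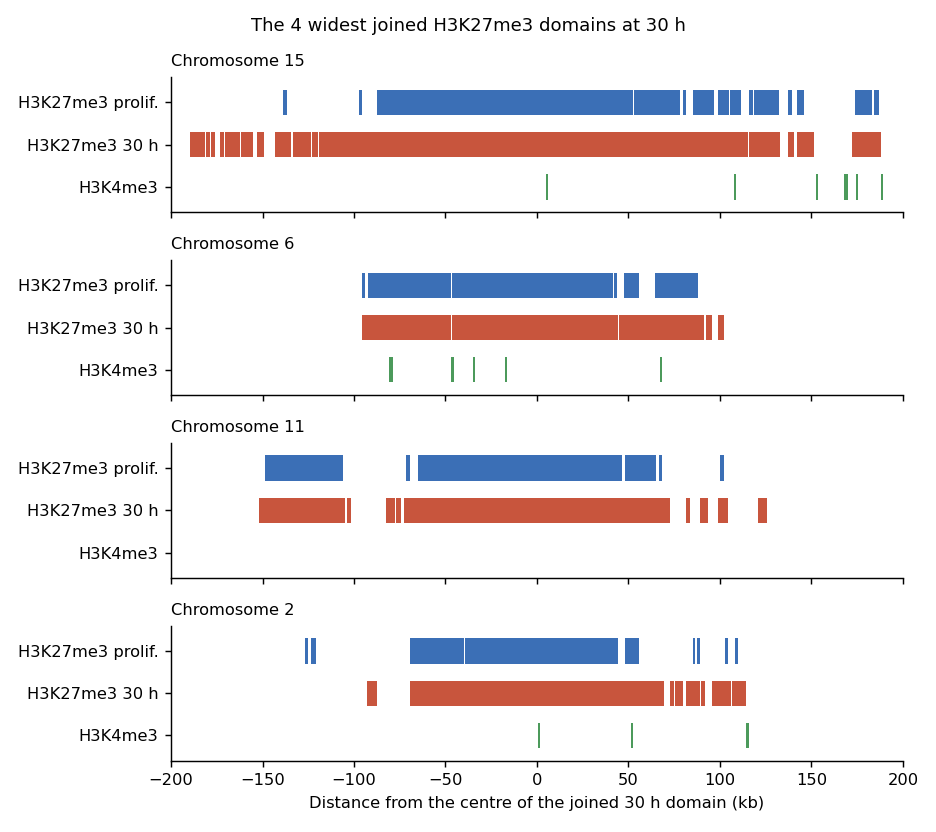
Peaks of the 3 lists (rows, 1 library each) around the 4 widest joined H3K27me3 domains at 30 h, drawn to scale by distance from the centre of each domain (x axis, kb), with very small gaps not resolved. On chromosome 15 the gaps add up to 21.5 kb between proliferating peaks and 1.69 kb at 30 h, where joining kept each under 1 kb. The proliferating peaks cover 78.1 to 91.1% of each domain, whose ends are those of 30 h peaks.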

How the data were processed

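ChIP-seq peak lists of 3 libraries were used, 1 each for H3K27me3 in proliferating cultures, H3K27me3 at 30 h and H3K4me3 in ventral proliferating cultures. Inputs were left out. Reads were aligned to mm9, and Bowtie2 is named in the submitters' processing notes. MACS was run by the authors with model building and local background switched off for H3K27me3. Its version and threshold, and any use of inputs, were not given in the sources used. The lists, as deposited, hold the start and end of each peak in bases and a MACS score, used here to rank, group and describe peaks. Depth is unknown. Coordinates are 1-based.

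Overlap, edges and gaps were computed (Python 3.11.15, with pandas 2.3.3, numpy 2.4.6, scipy 1.17.1 and networkx 3.6.1), the scripts were tested on simulated data, and plots were drawn with matplotlib 3.10.9. A pair is shared from 1 bp of overlap. An outward shift is positive where the 30 h edge lies outside the proliferating edge. With 1 library per condition no test was run. Alternatives changed the score threshold, list length, joining, overlap and chromosomes. Peaks were named by rank (the 5 widest of each list, the 5 with most partners, the 3 largest shifts each way and the 10 longest closed gaps), except the joined domains, which were named after their values were seen. Regions and measures were chosen with earlier results of these data known. Developmental genes were to be placed by mm9 positions. The gene table at hand is GRCm38 (230 peaks on chromosome 7 lie past its last gene), so no gene was placed and no sequence printed.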

Additional observations from a re-analysis of the deposited data

Results flagged for a closer look

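Chromosome X and the unplaced contigs were outside the main comparison. On chromosome X, 34 one-to-one pairs were found, with a median outward shift of 299 bp on the left and 265.5 bp on the right, and 19 of them (55.9%) were wider on both sides at 30 h. A single 30 h peak there spanned 2 or more proliferating peaks. The proliferating list held 285 peaks on chromosome X, covering 626 kb, and the 30 h list 142 peaks, covering 495 kb. Number and length were both in the opposite order to chromosomes 1 to 19. Chromosome Y and the unplaced contigs held 172 peaks in the proliferating list and 174 at 30 h. These peaks were noted because they lie outside the main comparison, with chromosome X added only as an alternative setting, and the differences were not tested.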

How the results depend on the processing

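Under every setting tried, the median edge shift was outward on both sides, which lists shortened by 30 h score favour by keeping wide peaks, and proliferating gaps were closed more often than 30 h gaps. Of 89 recomputed values, 41 stayed within the counting interval or 1.5 times the count and 48 moved. For the shares of length, that interval counted single bases as independent and was very narrow. All recomputed shares of length are therefore among those that moved, also where they hardly changed. The order of the median gaps, 82946 bp in proliferating cells and 11783 bp at 30 h, was the opposite at equal covered length. With the higher-scoring 50% of each list, the left and right shifts were 958 and 961 bp, 76.6% of pairs were wider on both sides, 478 30 h peaks spanned several proliferating peaks, 77 proliferating peaks met several, the median gaps were 107859 and 30527.5 bp, 58.7% of proliferating and 2.996% of 30 h gaps up to 10 kb were closed, 33.4% of the 30 h-only length was joined to proliferating peaks and 86.2% of the proliferating length was kept. With equal numbers of peaks these were 965 and 927 bp and 76.4% of pairs, with a 30 h gap of 23389.5 bp, 3.16% of 30 h gaps closed, 40.5% joined and 72.7% kept. With peaks less than 1 kb apart joined they were 956 and 929 bp, with 22 proliferating peaks meeting several, gaps of 114160 and 21725.5 bp, 0.484% of 30 h gaps closed, 38.6% joined and 75.9% kept. An overlap of at least 50% of the shorter peak left 24 proliferating peaks meeting several, 30.0% joined and 74.8% kept, and chromosome X gave 31.0% joined and 74.2% kept.

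Further settings were added after the data had been seen. With 2053 30 h peaks, which cover the length of the proliferating list, the shifts were 1663.5 and 1469.5 bp, 83.8% of pairs were wider on both sides, 22 proliferating peaks met several, the 30 h gap was 199147 bp, 46.0% of proliferating and 5.84% of 30 h gaps were closed, 81.0% was joined and 54.0% kept. A setting without wide peaks mostly under H3K4me3 took out 5 proliferating peaks and also peaks of the 30 h list, leaving 9008 and 14864. With it, 31.1% was joined and 75.2% kept. For edges beside H3K4me3, peaks that did not touch the proliferating peak gave 436 bp against 781 bp elsewhere and 58.8% of one-sided pairs, the higher-scoring 50% of H3K4me3 peaks gave 806 bp elsewhere and 77.2%, and equal numbers gave 1044 bp elsewhere. Beyond the shorter lists, the cause was not tested. The other window for genes was not run, since no gene was placed. Depth is unknown and limits every comparison.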

Other observations

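After peaks less than 1 kb apart were joined, domains wider than 50 kb numbered 9 in the proliferating list and 60 at 30 h, and those wider than 10 kb numbered 388 and 1551. Joining removed 902 gaps from the proliferating list and 2520 from the 30 h list. The fifth widest joined proliferating domain, on chromosome 8 from 19688788 to 19791562 (102.8 kb, 5 peaks), was not among the 5 widest at 30 h, where the fifth lay on chromosome 17 from 36255426 to 36379736 (124.3 kb, 7 peaks).

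Proliferating H3K27me3 peaks wider than 20 kb that lay mostly under H3K4me3 numbered 5. They were found on chromosome 1 from 172993047 to 173017108, chromosome 6 from 47600852 to 47637386 and from 47686846 to 47724220, chromosome 8 from 126060802 to 126149287 and chromosome 12 from 57618415 to 57644003. Whether they stand out in input DNA was not tested.

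The ratio of covered length at 30 h to proliferating ran from 2.15 on chromosome 3 to 3.003 on chromosome 9. All 19 chromosomes lay above 2.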
